A study of Arabidopsis thaliana with 12 samples.

Results

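The loci AT1G20390, AT1G67865, AT3G28320, AT5G45428, AT5G45430 and AT5G34795, are described here in seedling shoots of Arabidopsis thaliana and its hybrids. They are 6 of the 32992 identifiers that had a single line in every deposited table, none with a gene symbol, and they were chosen by RPKM in the hybrids that lay far from the average of Col and C24. The 4 groups were the accession Col, the accession C24 and the hybrids labelled Col/C24 and C24/Col, with 3 replicates each and 12 libraries in all. The labels do not say which parent served as the mother of each hybrid, nor whether each replicate came from plants of its own, and p-values therefore cover only the spread among these samples. All plants were unmodified wild types harvested after 14 days in short days, with 8 h of light at 22 °C and 16 h of dark at 18 °C, and polyadenylated RNA was sequenced. Values are RPKM, which are reads per kilobase of gene and per M (1e6) of mapped reads. The mid-parent is the average of Col and C24 RPKM over libraries with the same replicate number.

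A first-generation hybrid carries 1 allele from each accession, and where each allele is transcribed as in its own parent the hybrid lies at the mid-parent. Levels away from it are called non-additive, and many such loci in Arabidopsis are pseudogenes or relics of mobile elements, or genes whose copies differ between accessions. Some mRNAs also carry a short upstream open reading frame in the leader before the main coding sequence, and an annotation may list that frame as a locus of its own. RefSeq (TAIR10.1) annotated AT1G20390 as a pseudogene with an uncharacterized product at chr1:7065494-7071561 on the plus strand, in 1 exon of 6068 bases. AT5G34795 was annotated as a transcribed pseudogene of a K-box region protein of the DUF1985 type at chr5:12969220-12970879, plus strand. AT1G67865 encodes an uncharacterized protein of 75 residues at chr1:25445994-25447622, minus strand, and AT3G28320 a protein of 317 residues with a DUF677 domain at chr3:10581831-10582784, plus strand. AT5G45430 encodes a member of the protein kinase superfamily with 499 residues at chr5:18407150-18411977, plus strand. AT5G45428 was not a locus of its own there, and RefSeq attached the name as a further identifier to coding sequences of AT5G45430. RefSeq placed an upstream open reading frame of 126 bases at chr5:18408137-18408262, which ended 937 bases before the first coding base of the kinase.

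Sequences that resemble a member elsewhere in the genome matter for how its reads are assigned, so 3 members are shown beside 1 similar locus each. That locus is not in each case the longest or closest match. Differing or unpaired bases are in capitals, from the RefSeq TAIR10.1 genome, 5′ to 3′ on the strand of the locus. The coding sequence of AT1G67865 (chr1:25446460-25446687, minus strand) is set beside that of its tandem relative AT1G67860 (chr1:25444940-25445176, minus strand), with 51 of 225 aligned bases different and a longest identical run of 23 bases.
AT1G67865: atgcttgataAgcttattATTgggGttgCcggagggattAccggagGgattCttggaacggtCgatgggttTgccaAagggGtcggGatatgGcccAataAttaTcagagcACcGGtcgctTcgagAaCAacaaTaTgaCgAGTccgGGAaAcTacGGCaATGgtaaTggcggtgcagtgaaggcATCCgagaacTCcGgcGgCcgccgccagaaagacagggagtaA
AT1G67860: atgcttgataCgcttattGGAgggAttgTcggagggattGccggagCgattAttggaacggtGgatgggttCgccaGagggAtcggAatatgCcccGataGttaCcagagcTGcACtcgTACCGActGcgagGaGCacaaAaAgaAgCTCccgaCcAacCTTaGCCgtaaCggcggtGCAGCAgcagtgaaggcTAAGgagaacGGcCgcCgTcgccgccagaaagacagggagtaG
Bases 127 to 276 of AT1G20390 (chr1:7065620-7065769, plus strand) are shown with the matching stretch of the next locus, AT1G20400 (chr1:7075491-7075640, plus strand), in which 2 of 150 bases differ.
AT1G20390: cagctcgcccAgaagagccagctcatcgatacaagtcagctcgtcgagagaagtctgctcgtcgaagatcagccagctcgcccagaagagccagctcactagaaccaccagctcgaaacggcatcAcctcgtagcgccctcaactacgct
AT1G20400: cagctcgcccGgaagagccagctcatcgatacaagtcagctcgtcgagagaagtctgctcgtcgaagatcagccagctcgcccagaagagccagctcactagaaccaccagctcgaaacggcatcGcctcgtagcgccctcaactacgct
Bases 1 to 200 of AT5G34795 (chr5:12969220-12969419, plus strand) are set against AT5G29037 (chr5:11093120-11093319, minus strand), with 11 of 200 bases different.
AT5G34795: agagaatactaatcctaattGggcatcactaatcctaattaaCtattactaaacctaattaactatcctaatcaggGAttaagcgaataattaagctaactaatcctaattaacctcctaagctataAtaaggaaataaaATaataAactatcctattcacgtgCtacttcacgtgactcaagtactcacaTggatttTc
AT5G29037: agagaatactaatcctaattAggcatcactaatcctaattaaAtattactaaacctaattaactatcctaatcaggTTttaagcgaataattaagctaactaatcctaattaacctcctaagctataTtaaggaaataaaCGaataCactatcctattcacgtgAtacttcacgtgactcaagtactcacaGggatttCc
Matches of at least 95% identity and 100 bases covered 6.62% of AT1G20390, the longest being 402 bases in AT5G15420. AT5G34795 had 1 such match, of 1103 bases in AT5G29037 at 95.6% identity. AT1G67865, AT3G28320 and AT5G45430 had 0. At lower identity, AT1G67865 had a match of 101 bases at 86.1% in its neighbour AT1G67870. AT5G45430 had a match of 140 bases at 90.7% in AT4G19110, and matches of at least 80% identity covered 23.7% of its exons.

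Library depth, as judged by the steps between low values, was 15.8 to 27.2 M reads, and 17082 to 17420 genes per library reached 1 RPKM. Of the leaf markers fixed for this tissue, RBCS1A, LHCA1 and LHB1B1 were listed at 3153 to 14207 RPKM and CAB1 at 0 in every library. The root marker PYK10 was at 70.1 to 113 RPKM and PHT1;1 at 0.03 to 0.66 RPKM, and the flower markers AP3, PI and AG did not exceed 0.52 RPKM. The seed storage gene CRA1 was at 27.6 RPKM in the first Col/C24 library and at 12.2 and 50.4 RPKM in replicates 1 and 3 of C24/Col, against at most 0.48 RPKM in the other 9 libraries. Ribosomal RNA took 0.231% to 4.49% of the summed RPKM, and more than 2% in Col replicates 1 and 2 and Col/C24 replicates 1 and 3. Leaving out either set of libraries kept all 6 loci on the same side of the mid-parent in both hybrids. That distance chose the loci in these same libraries, so this is no support for it. Without the libraries above 2% ribosomal RNA, Col and Col/C24 kept 1 library each, and without those with CRA1, C24/Col kept 1.

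The hybrids lay between C24 and Col but close to C24 for AT1G20390, and they lay below the mid-parent for AT1G67865 and AT3G28320. For AT5G45428 and AT5G45430 they lay at the level of Col, far from C24. For AT5G34795 they exceeded both parents. These distances from the mid-parent chose the loci and are given as a description, with no test.

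**Figure D1:**
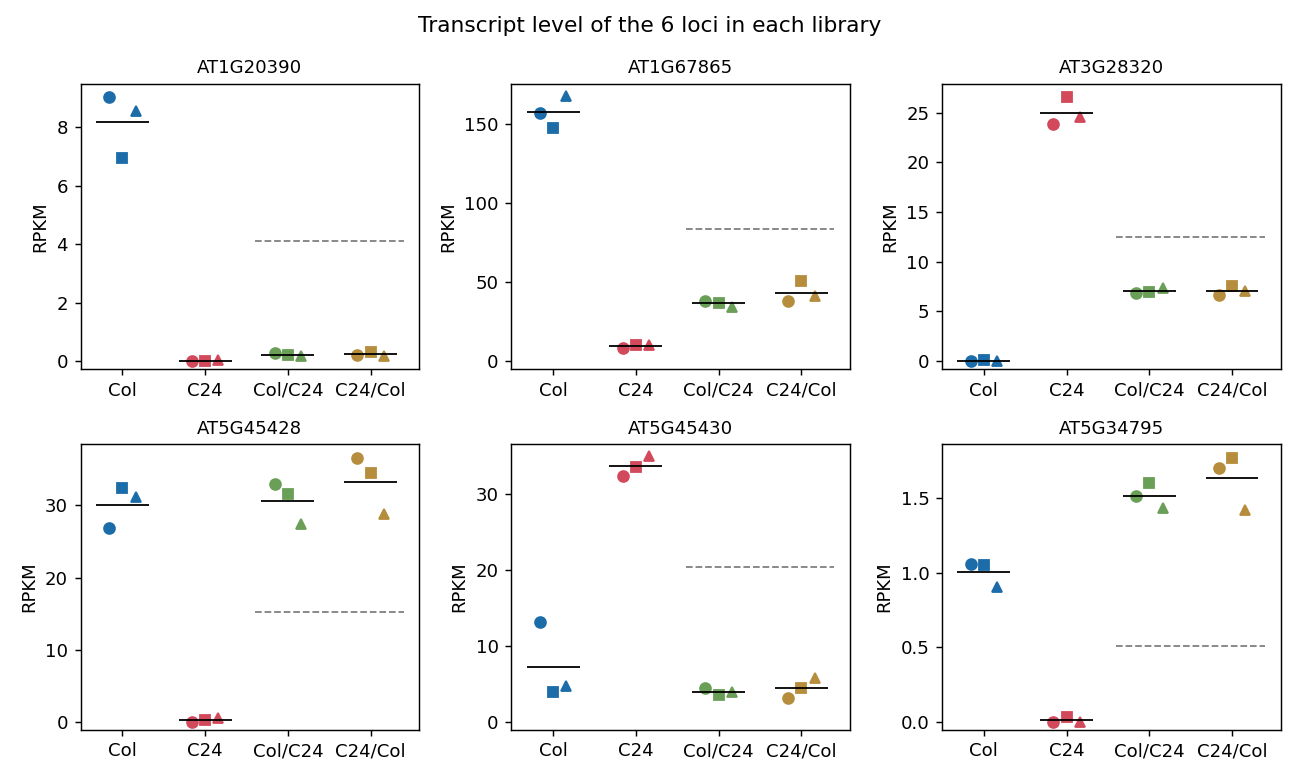
RPKM of the 6 loci (y axis, linear, a scale of its own in each panel) in the libraries of both parents and both hybrids (x axis). Points are libraries (circle, square and triangle for replicates 1, 2 and 3), black bars are group means and dashed lines are the mid-parent. The 6 hybrid libraries sit near 0 for AT1G20390, at 34.4 to 50.3 for AT1G67865 and at 1.42 to 1.77 for AT5G34795, where every parental library is lower.

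The pseudogene AT1G20390 was expressed in Col, with 9.05, 6.95 and 8.57 RPKM in replicates 1 to 3. The C24 libraries held 0, 0 and 0.03 RPKM, Col/C24 0.26, 0.20 and 0.18, and C24/Col 0.22, 0.31 and 0.18. The Col libraries were thus far above all others, and every hybrid library was above every C24 library. Estimated reads were 1147 to 1258 per Col library, 17.2 to 36.3 per hybrid library and 0, 0 and 3.96 in C24, where 3 reads would give 0.0227 to 0.0266 RPKM. The hybrid means of 0.213 ± 0.0416 and 0.237 ± 0.0666 RPKM (SD, n = 3 each) were 5.20% and 5.77% of the mid-parent of 4.10 ± 0.553 RPKM. Col exceeded the hybrid means 38.4-fold and 34.6-fold. On the line from C24 (0%) to Col (100%) they stood at 2.49% and 2.77%. The next locus, AT1G20400, was also highest in Col, at a far lower level, with 0.15, 0.21 and 0.34 RPKM in Col and at most 0.02 in each of the other 9 libraries. It was too low to be tested. A stretch of 274 bases in AT1G20400 is 99.3% identical to AT1G20390, and how reads were divided between these loci was not tested. On the other side, 251 bases away, the prolyl oligopeptidase family gene AT1G20380 had 2.52 to 3.14 RPKM in Col and 3.58 to 5.32 in C24. That difference of 0.53 ± 0.18 (log2, SE) did not pass limma with Benjamini-Hochberg adjustment (adjusted p = 0.0545), and it passed with the replicate number as a block (adjusted p = 0.00414).

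AT1G67865, which encodes a short uncharacterized protein, had the highest mean RPKM of the 6 loci in Col and in both hybrids, but not in C24. It had 157, 147 and 168 RPKM in Col and 8.13, 10.3 and 10.2 in C24. Col/C24 held 37.8, 37.0 and 34.4 RPKM and C24/Col 38.2, 50.3 and 41.0. All hybrid libraries lay between the parents and below the mid-parent of 83.4 ± 5.12 RPKM (SD, n = 3). The hybrid means, 36.4 ± 1.78 and 43.2 ± 6.36 RPKM, were 43.6% and 51.7% of it, at 18.2% and 22.7% of the way from C24 to Col. This distance belongs to the arithmetic mid-parent. Against a mean of log2(RPKM + 1) the differences were -0.13 in Col/C24 and 0.11 in C24/Col. AT1G67860, the relative 636 bases away, has a protein 56.4% identical over 78 aligned positions. Its levels were 54.4 to 69.7 RPKM in Col, 12.5 to 21.1 in C24, 31.5 to 38.7 in Col/C24 and 35.4 to 42.2 in C24/Col. It too was higher in Col (C24 against Col -1.72 ± 0.18 log2, limma adjusted p = 5.00e-05), but the hybrids were not called against the mid-parent, at -0.19 ± 0.13 (adjusted p = 0.652) and 0.02 ± 0.13 (adjusted p = 0.999). Within a library, AT1G67865 stood at 2.40 to 2.89 times AT1G67860 in Col, 0.489 to 0.649 times in C24 and 0.955 to 1.20 times in the hybrids, with no overlap between these 3 sets. The difference between the relatives in their distance from the mid-parent was not tested. The glycine-rich protein gene AT1G67870 on the other side differed less, with 188 to 216 RPKM in Col and 152 to 156 in C24 (-0.38 ± 0.09, adjusted p = 0.00981).

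AT3G28320, of the DUF677 family, was the reverse case, with transcripts in C24 and almost none in Col. Col replicates held 0.03, 0.06 and 0 RPKM, each under the 0.116 to 0.140 RPKM that 3 reads would give there, and C24 held 23.9, 26.6 and 24.5. Col/C24 held 6.83, 6.94 and 7.34 RPKM and C24/Col 6.63, 7.52 and 7.04. The 6 hybrid libraries formed a narrow band between parents that did not overlap it. Their means of 7.04 ± 0.268 and 7.06 ± 0.445 RPKM (SD, n = 3) were 56.2% and 56.4% of the mid-parent of 12.5 ± 0.716 RPKM, and C24 exceeded them 3.55-fold and 3.54-fold. The direction here belongs to the arithmetic mid-parent, since against a mean of log2(RPKM + 1) the hybrids lay 0.64 above it in both crosses.

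The DUF677 genes beside AT3G28320 did not share 1 direction. All 4 listed kin passed between the parents, 2 higher and 2 lower in C24, where 22.7% of all genes tested passed. Their median log2 difference was -0.33, against -0.01 over all genes tested. It falls between 2 strongly opposite pairs, is near none of the 4 genes and shows no shift of the family. AT3G28310, 4455 bases away, had 0.14, 0.12 and 0 RPKM in Col, 6.54 to 8.40 in C24 and 2.08 to 3.25 in the hybrids (parents 3.001 ± 0.131 log2, limma adjusted p = 3.28e-08). AT3G28270 had 1.38 to 2.14 RPKM in Col and 36.4 to 48.0 in C24 (3.92 ± 0.26, adjusted p = 1.40e-06). AT3G28290 and AT3G28300, both named AT14A, went the other way, and AT3G28300 had 9.54 to 17.6 RPKM in Col and 0.10 to 0.20 in C24 (-3.67 ± 0.25, adjusted p = 1.40e-06). The values of the AT14A copies are uncertain because reads of close copies may be split between them. Against the mid-parent 0 of the 4 passed in either hybrid, with 1 at an unadjusted p under 0.05 in each (8.85% of all genes tested in Col/C24, 6.07% in C24/Col). AT3G28310 stood at 69.0% and 69.5% of its mid-parent, which is lower by 0.40 ± 0.13 (adjusted p = 0.504) and 0.41 ± 0.13 (adjusted p = 0.671), and in Col/C24 it passed with the replicate block (adjusted p = 0.0472). GATL10, a galacturonosyltransferase-like gene 6162 bases beyond AT3G28320, was higher in C24 (2.05 ± 0.50, adjusted p = 0.0133), with 17.5, 4.32 and 5.07 RPKM against 0.61 to 1.84 in Col. That call was lost without the libraries above 2% ribosomal RNA (adjusted p = 0.102) and with that share as a covariate (adjusted p = 0.0587).

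AT5G45428 and AT5G45430 mirrored each other across the 12 libraries. AT5G45428 had 26.9, 32.4 and 31.2 RPKM in Col, 0, 0.22 and 0.45 in C24, 33.0, 31.6 and 27.4 in Col/C24 and 36.6, 34.5 and 28.8 in C24/Col. The kinase AT5G45430 had 13.1, 3.89 and 4.72 RPKM in Col, 32.5, 33.7 and 35.0 in C24, 4.46, 3.58 and 3.86 in Col/C24 and 3.19, 4.40 and 5.75 in C24/Col. At both identifiers the hybrid libraries overlapped those of Col and stood apart from C24, and the first Col replicate lay apart from the other two for AT5G45430. Hybrid means were 202% and 219% of the mid-parent of 15.2 ± 1.53 RPKM for AT5G45428, and 19.4% and 21.7% of 20.5 ± 2.08 RPKM for AT5G45430.

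The sum of both identifiers hardly moved. It was 39.97, 36.3 and 35.9 RPKM in Col, 32.5, 33.9 and 35.5 in C24, 37.4, 35.2 and 31.3 in Col/C24 and 39.8, 38.9 and 34.6 in C24/Col. Ranges of the 4 groups overlapped apart from Col and C24, and the highest library exceeded the lowest 1.28-fold. The hybrid sums of 34.6 ± 3.12 and 37.8 ± 2.80 RPKM (SD, n = 3) were 97.1% and 106% of the summed mid-parent of 35.7 RPKM. AT5G45428 made up 67.2% to 89.3% of the sum in Col, 0% to 1.27% in C24 and 83.4% to 92.0% in the hybrids. Pearson's r between the RPKM of both identifiers was -0.984 over 12 libraries, which share 4 groups. RPKM is per length, and gene lengths used by the authors were not given in the sources used here, so that the sum is not a count of reads. How reads were divided between them was not tested.

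**Figure D2:**
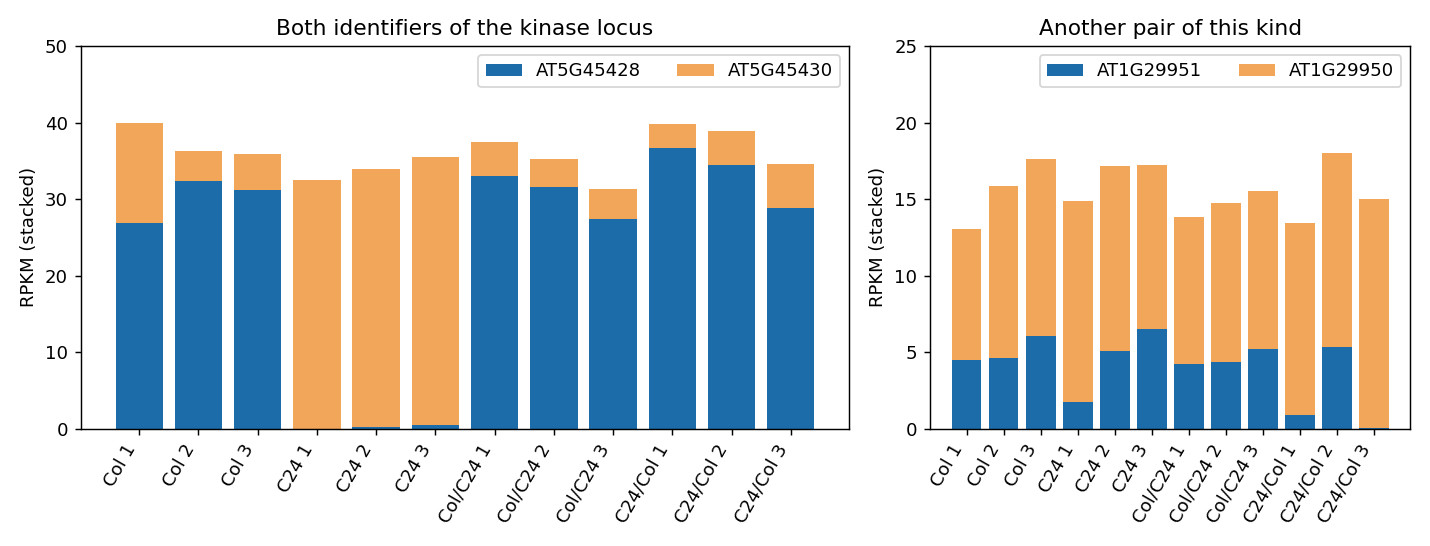
Stacked bars of RPKM (y axis, from 0) in each library (x axis) for the kinase locus AT5G45430 with AT5G45428 (left) and for AT1G29950 with AT1G29951 (right). The total of the left pair is 31.3 to 39.97 RPKM throughout, while AT5G45428 takes at most 1.27% of it in C24 and at least 67.2% in the other groups.

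RefSeq merged 2 further identifiers of this kind, with an upstream open reading frame, into a host gene that also has its own line in the tables. For AT1G29950 and AT1G29951 the sum ran from 13.0 to 18.0 RPKM and the share of AT1G29951 from 0.133% to 37.7%. Within C24/Col alone AT1G29951 was listed at 0.93, 5.36 and 0.02 RPKM, so that its share varied among replicates of 1 group. For AT1G06150 and AT1G06149 the share stayed at 80.5% to 88.2% in all libraries. Of these 4 identifiers, 1 was higher in C24 (AT1G06150, 0.28 ± 0.09 log2, limma adjusted p = 0.0396), a share near the 22.7% of all genes tested. Against the mid-parent 0 passed in either hybrid, with 1 at an unadjusted p under 0.05 in each, where 8.85% and 6.07% of all genes tested were.

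The genes tested around the kinase were not called against the mid-parent, though some shared its direction between the parents. AT5G45440, a P-loop NTPase family gene 81 bases away, had 0.46 to 0.70 RPKM in Col, 3.10 to 3.69 in C24 and 1.49 to 2.18 in the hybrids. It was higher in C24 (1.42 ± 0.12 log2, limma adjusted p = 9.48e-06) and lay at 94.7% and 97.1% of the mid-parent. AT5G45410 was also higher in C24 (0.47 ± 0.09, adjusted p = 0.00380), and maMYB, a membrane-anchored MYB factor, was not called (-0.26 ± 0.11, adjusted p = 0.117). Of the kinases most like AT5G45430 in sequence, AT4G19110 (67.9% identity) was higher in C24 by 0.40 ± 0.11 (adjusted p = 0.0197) and MHK (58.7%) was not called (-0.21 ± 0.20, adjusted p = 0.510). Neither was called against the mid-parent, at an unadjusted p under 0.05 in 0 of 2 in each hybrid.

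AT5G34795 did not exceed 1.77 RPKM in any library, and its hybrid libraries exceeded all parental ones. Col held 1.06, 1.05 and 0.90 RPKM and C24 held 0, 0.03 and 0. Col/C24 held 1.51, 1.60 and 1.43 RPKM and C24/Col 1.70, 1.77 and 1.42. No hybrid library overlapped a Col library, and the C24 values correspond to 0, 1.08 and 0 estimated reads against 33.6 to 47.4 in Col and 37.1 to 56.8 in the hybrids. The hybrid means of 1.51 ± 0.0850 and 1.63 ± 0.185 RPKM (SD, n = 3) were 1.51 and 1.62 times the Col mean, and 299% and 322% of the mid-parent of 0.507 ± 0.0493 RPKM. Over all 17927 genes tested, 0.0893% had all 6 hybrid libraries above all 6 parental ones. AT5G34795 was chosen by its hybrid levels and met the filter of the fit only with its hybrid libraries. That share is therefore a background and no support for a difference. AT5G29037, the copy shown above, did not exceed 0.01 RPKM in any library. Another copy, of 1104 bases at 93.8% identity on chromosome 4, lay in no annotated locus and has no value. Matches of at least 95% identity covered 66.4% of AT5G34795, and those of at least 80% covered 100%. How reads were shared among the copies was not tested.

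The pseudogenes on both sides of AT5G34795 were also lowest in C24 and higher in both hybrids than in Col. AT5G34790, 1064 bases away, had 0.56, 0.62 and 0.41 RPKM in Col, 0 in all C24 libraries and 0.91 to 1.42 in the hybrids. AT5G34800, 264 bases away on the other side, had 0.87, 0.92 and 0.78 in Col, 0 in C24 and 1.06 to 1.67 in the hybrids. At both loci every hybrid library was above every Col library. Both were lower in C24, AT5G34790 by -0.61 ± 0.11 log2 (limma adjusted p = 0.00194) and AT5G34800 by -0.89 ± 0.11 (adjusted p = 0.000155), and the call of AT5G34790 was lost without the libraries above 2% ribosomal RNA (adjusted p = 0.1004). Against the mid-parent, AT5G34790 stood 0.78 ± 0.11 higher in Col/C24 (adjusted p = 0.143) and 0.75 ± 0.11 in C24/Col (adjusted p = 0.110). AT5G34800 stood 0.66 ± 0.11 higher in Col/C24 (adjusted p = 0.217) and 0.75 ± 0.11 in C24/Col (adjusted p = 0.126). With the replicate block the 4 differences passed, with adjusted p-values of 0.0175 and 0.0185 for AT5G34790 and 0.0229 and 0.0162 for AT5G34800. Both loci reached 1 RPKM in hybrid libraries only and so entered the fit through the groups where they are high, which means that neither these values nor their calls are support for a difference from the mid-parent. AT5G34780, 5327 bases away, was at 0 in Col, 0.24 to 0.59 RPKM in C24 and 0.42 to 0.78 in the hybrids, and it was too low to be tested.

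The span was widened to 8 loci on each side of AT5G34795 after these values had been seen. Of the 16 loci, 9 were listed at 0 in every library. Another 6 (AT5G34790, AT5G34800, AT5G34810, AT5G34820, AT5G34825 and AT5G34830) were at 0 in all C24 libraries and above 0 in at least 2 of Col. Hybrid means exceeded the Col mean in both hybrids at all 6, and all hybrid libraries exceeded all Col libraries at 2, AT5G34790 and AT5G34800. The remaining 4 did not exceed 0.81 RPKM in any library, and their hybrid libraries overlapped those of Col. AT5G34810 averaged 0.243 RPKM in Col, 0.400 in Col/C24 and 0.337 in C24/Col. AT5G34830 had 0.09, 0.47 and 0.38 RPKM in Col and 0.81, 0 and 0.27 in C24/Col. The share of all genes with such values was not counted, so nothing is read from these counts.

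**Figure D3:**
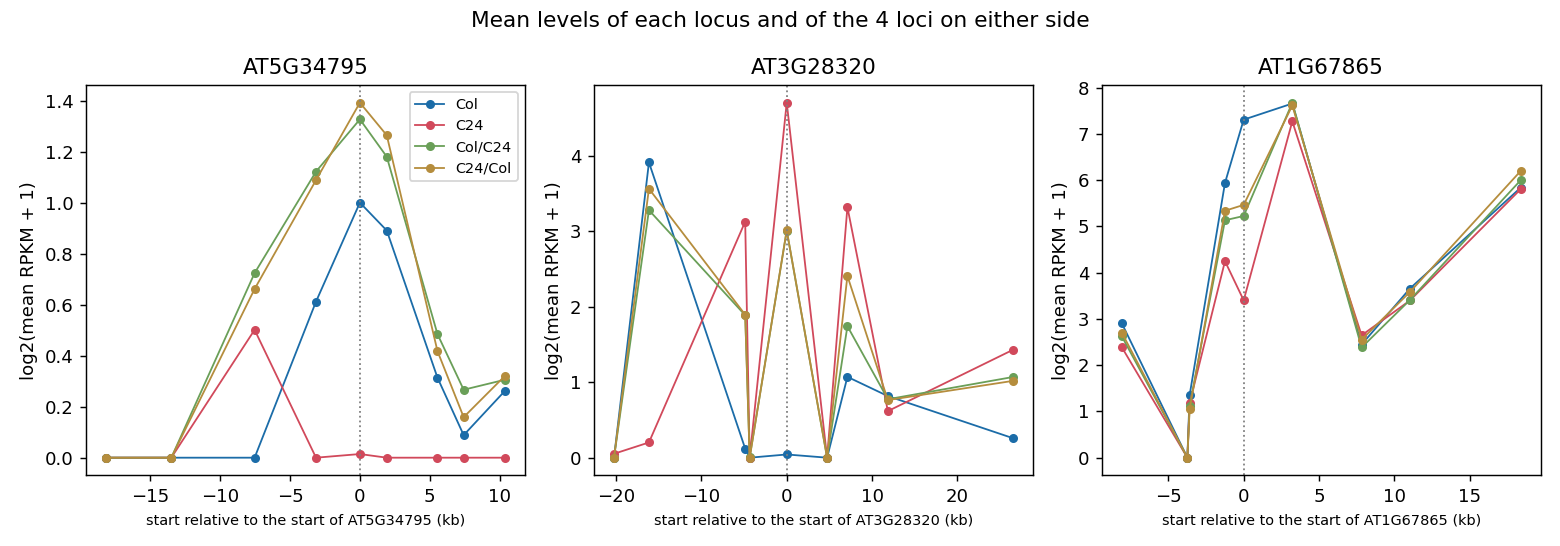
Mean level, as log2(mean RPKM + 1) (y axis, a scale of its own in each panel), of AT5G34795, AT3G28320 and AT1G67865 and of the 4 loci on either side of each, against the start of each locus relative to the member (x axis, kb). Lines join loci of 1 group (n = 3 libraries) to guide the eye, and the dotted line marks the member. Around AT5G34795 both hybrids run above Col and C24 at the member and its nearest loci, whereas around AT1G67865 and AT3G28320 they run between the parents at the member.

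The accessions themselves were compared in a fit over 17927 genes with at least 1 RPKM in 3 libraries, on log2(RPKM + 1). Reads were aligned to TAIR10 per the submitters' notes, and whether C24 reads align there as well as Col reads was not tested. A C24 level near 0 is thus a level of aligned reads, in the parent and in its part of the mid-parent. All 6 loci passed between C24 and Col, 2 higher and 4 lower in C24, where 22.7% of all genes tested did (10.3% higher, 12.4% lower). AT1G20390 entered the fit only through its Col libraries, and AT5G34795 only with its hybrid libraries. A locus far from the mid-parent is also likely to differ between the parents, so that this count is no support for the choice. AT3G28320 and AT5G45428 reached 1 RPKM in 9 libraries, AT5G34795 in 8 and the others in 12. In limma the difference, C24 minus Col, was -3.18 ± 0.10 (SE) for AT1G20390 (adjusted p = 2.57e-09), -3.91 ± 0.11 for AT1G67865 (adjusted p = 1.18e-09) and -4.68 ± 0.14 for AT5G45428 (adjusted p = 1.68e-09). It was -0.99 ± 0.09 for AT5G34795 (adjusted p = 1.36e-05), 4.66 ± 0.07 for AT3G28320 (adjusted p = 1.91e-11) and 2.24 ± 0.33 for AT5G45430 (adjusted p = 0.000581). Where 1 parent was at or near 0 the size of this difference depends on the added 1 RPKM and is no bound on the fold. The parental libraries did not overlap at any of the 6 loci, which held for 37.4% of genes tested. In whole shoots, fewer expressing cells and less RNA per cell cannot be told apart.

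The reciprocal hybrids were compared to see whether the direction of the cross mattered. Between C24/Col and Col/C24, 0 of 6 loci passed in limma, and 0% of all genes did. At an unadjusted p under 0.05 there were 0 of the 6 and 745 of the 17927 genes (4.16%). The differences were 0.23 ± 0.11 for AT1G67865 (adjusted p = 0.935), 0.11 ± 0.33 for AT5G45430 (adjusted p = 0.977) and 0.11 ± 0.14 for AT5G45428 (adjusted p = 0.953). They were 0.06 ± 0.09 for AT5G34795 (adjusted p = 0.953), 0.03 ± 0.10 for AT1G20390 (adjusted p = 0.980) and 0.00 ± 0.07 for AT3G28320 (adjusted p = 0.996). The libraries of the 2 crosses did not overlap for AT1G67865, with 34.4 to 37.8 RPKM against 38.2 to 50.3, as for 28.5% of genes tested. AT5G45428 and AT5G34795 were listed for C24/Col alone, and no difference between the crosses was shown for either.

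**Figure D4:**
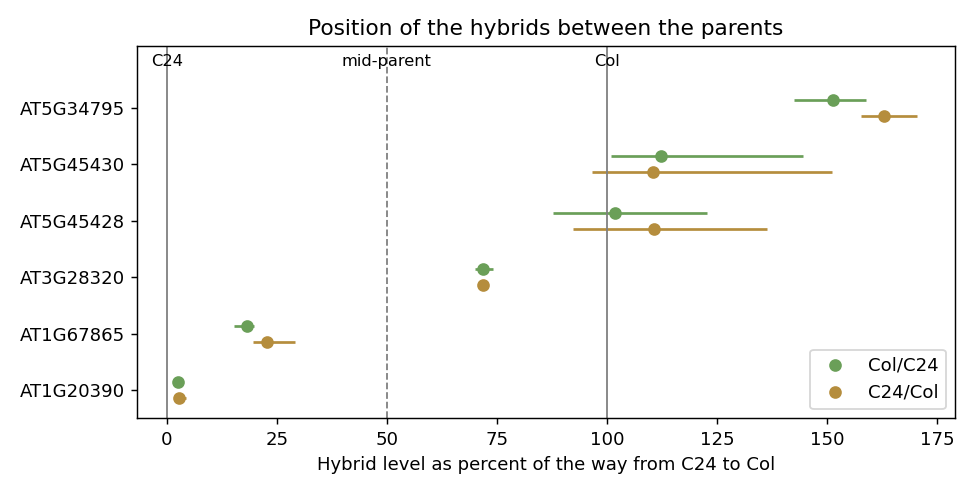
Mean level of each hybrid as a percentage of the way from C24 (0) to Col (100) on the RPKM scale (x axis) for the 6 loci (y axis). Points are hybrid means and bars run from the lowest to the highest of the 3 libraries paired with parents of the same number. AT1G20390 stands at 2.49% and 2.77%, and AT5G34795 at 151% and 163%.

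Among 309 genes tested whose parental means differed at least 4-fold in RPKM + 1, the hybrids stood at a median of 51.9% (Col/C24; quartiles 44.0% and 65.1%) and 50.4% (C24/Col; 42.0% and 59.0%) of the way from C24 to Col. On that scale AT1G20390 stood at 2.49% and 2.77%, where 4 of the 309 genes, AT1G20390 among them, were under 5% in each hybrid. AT3G28320 stood at 71.9% and 71.8%, AT5G45428 at 102% and 111%, AT5G45430 at 112% and 111% and AT5G34795 at 151% and 163%. Positions over 100% were held by 13 of the 309 genes in Col/C24 and 3 in C24/Col, AT5G45428 and AT5G45430 among them, while the parental difference of AT5G34795 was too small on the RPKM + 1 scale for it to be one of the 309. Because the first Col replicate of AT5G45430 was high, its position over the 3 pairs was 101% to 145% for Col/C24 and 96.6% to 151% for C24/Col.

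The limit that set the list was an adjusted p of 0.05 against the mid-parent in limma, which 6 genes (0.0335%) met in Col/C24 and 9 (0.0502%) in C24/Col. Of the members, 4 were among the former and 6 among the latter, as the choice fixed. Just inside in Col/C24 were FLC, a repressor of flowering (0.94, adjusted p = 0.0313), and AGL20, a promoter of flowering (-1.87, adjusted p = 0.0313). Just outside were AT5G34795 (0.74, adjusted p = 0.0515) and AT5G45428 (0.97, adjusted p = 0.0515). In C24/Col the genes nearest to the limit were AGL20 (-1.75, adjusted p = 0.0380) and RAB18, a dehydrin (0.72, adjusted p = 0.0455), inside, with MAF5, a relative of FLC (0.82, adjusted p = 0.0703), and AT5G10740 (-0.69, adjusted p = 0.0703) outside.

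The loci near the members were not chosen by their distance from the mid-parent. Of 20 nearest loci, 12 were tested. Between the parents 4 were higher in C24, 4 lower and 4 not called, where 22.7% of all genes tested were called, with a median difference of 0.01 against -0.01 over all genes tested. Against the mid-parent 0 of 12 passed in limma in either hybrid, with 3 at an unadjusted p under 0.05 in each (AT3G28310, AT5G34790 and AT5G34800), beside 8.85% of all genes tested in Col/C24 and 6.07% in C24/Col. With the replicate block 3 passed in Col/C24 and 2 in C24/Col, when 2.90% and 1.57% of all genes did. Of these 5 calls, 4 were AT5G34790 and AT5G34800, which entered the fit only through their hybrid libraries, so nothing is read from that count.

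Genes of DNA methylation and transposon silencing were read because 2 of the loci are pseudogenes. Of 13, C24 had 1 higher and 3 lower and 9 were not called, where 10.3% of all genes tested were higher and 12.4% lower, with a median log2 difference of -0.13 against -0.01 over all genes tested. CMT2, a chromomethylase, was higher (0.53 ± 0.08, limma adjusted p = 0.000761). RDR2, an RNA-dependent RNA polymerase (-0.47 ± 0.08, adjusted p = 0.00151), DML1, the demethylase also called ROS1 (-0.40 ± 0.08, adjusted p = 0.00627), and CMT3 (-0.34 ± 0.10, adjusted p = 0.0299) were lower. Against the mid-parent 0 of 13 passed in either hybrid, with 3 in Col/C24 and 2 in C24/Col at an unadjusted p under 0.05 (8.85% and 6.07% of all genes tested). Their median difference was -0.07 for Col/C24 and 0.02 for C24/Col, and over all genes tested it was -0.09 and -0.0029.

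The genes with the pattern most like each locus were ranked by Pearson's r of log2(RPKM + 1) over the 12 libraries, which share 4 groups. AT5G34800, the pseudogene next to it, ranked first for AT5G34795 (r = 0.990), followed by AT5G26270 (r = 0.980) and VSP2, a vegetative storage protein gene (r = 0.966). VSP2 averaged 24.6 RPKM in Col, 11.3 in C24, 41.5 in Col/C24 and 47.5 in C24/Col. For AT5G45428 the first was ECS1 (r = 0.997), at 145 RPKM in Col, 0.117 in C24, 127 in Col/C24 and 144 in C24/Col, then AT1G25098 (r = 0.985) and AT5G49440 (r = 0.984). Thus ECS1 too was near the level of Col in both hybrids, whereas the other 2 were well below it. AT1G25098 averaged 354 RPKM in Col, 0.333 in C24, 158 in Col/C24 and 164 in C24/Col. AT5G49440 averaged 103, 0.0467, 54.6 and 55.5 RPKM in the same order. The ranking picked these genes for their likeness, which is therefore no support for a shared distance from the mid-parent. For AT5G45430 they were HLL (r = 0.934), AT2G41440 (r = 0.930) and DPD1 (r = 0.919). For AT1G20390 they were AT5G49210 (r = 0.968), AT5G14840 (r = 0.965) and FAR1 (r = 0.964), for AT1G67865 MEE32 (r = 0.996), AT3G10120 (r = 0.996) and AT2G25870 (r = 0.995), and for AT3G28320 CYP76C8P (r = 0.996), AT1G63540 (r = 0.996) and AT5G25920 (r = 0.994). AT1G63540 averaged 0.00667 RPKM in Col and 10.4 in C24, with 3.86 and 4.37 in the hybrids. Among the members the highest r, 0.963, was between AT5G45428 and AT5G34795. Both had a C24 level near 0 and hybrid means above that of Col. AT1G20390, also near 0 in C24, had r = 0.398 with AT5G45428 and 0.157 with AT5G34795. The hybrid levels chose the loci, so that this likeness is no support for a shared pattern.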

How the data were processed

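RNA was measured in 12 libraries of shoots. The authors deposited 1 table per library with an identifier and an RPKM value, the unit being read from the values. Alignment used TopHat and TAIR10 per the submitters' processing notes, and the counting tool, its annotation and its use of strand were not given in the sources used here. Identifiers on more than 1 line (567 of 33559) were left out.

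The 17927 genes that reached 1 RPKM in 3 or more libraries were fitted with limma 3.58.1 (R 4.3.3, mean-variance trend) on log2(RPKM + 1), for all 12 libraries between groups and for 6 hybrid libraries with 3 mid-parent profiles. The Benjamini-Hochberg adjustment covered all genes tested, with a threshold of 0.05. The model for C24 against Col was tested on simulated data with independent libraries and no effect of replicate number. The fit against the mid-parent was not simulated. Depth came from the spacing of low values, of which 65.1% to 78.8% were whole within 0.15 of a read, and limits of 3 reads cover counting error only. Sequences and positions come from RefSeq TAIR10.1, whereas the labels name TAIR10 and the tables hold no coordinates, and 32248 of 32992 identifiers matched. Similarity was searched with BLAST 2.17.0 and pairs were aligned with Biopython 1.88 under Python 3.11.15.

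Deviations from group means correlated at 0.538 to 0.825 over 18 pairs of libraries with the same replicate number and at -0.649 to 0.187 over 36 others. The numbers were therefore used to pair Col and C24 libraries in the mid-parent, from the data and not from the labels. The main fits held no term for the replicate number, and their p-values are not paired. The replicate block was run as an alternative. The members and lists were chosen with earlier results of these data known. Named genes are the members, their 2 nearest loci with 1 line on each side, the list members, up to 3 kin, the 3 most alike genes and those next to the threshold. Alternatives covered the filter, pseudocount, scaling, block, samples fitted, mid-parent and each replicate left out. Those on ribosomal RNA, CRA1 and the first replicate number were added once the data were known.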

Additional observations from a re-analysis of the deposited data

How the results depend on the processing

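The 6 parental calls and 0 reciprocal calls at the members were the same under every alternative run, the replicate block included, and each replicate left out gave 6 and 0 again. Against the mid-parent the members gave 8 of 12 differences below it and 8 again with each replicate left out. This repeat is no support, since that distance chose the members. The count was 5 with a geometric mid-parent. That setting moved AT1G67865 to -0.13 (log2) in Col/C24 and turned it to 0.11 in C24/Col. It also turned AT3G28320 to 0.64 in both hybrids. A mean of logs lies below a mean of RPKM where the parents differ. Neighbouring loci gave 0 calls against the mid-parent, 5 with the replicate block and 4 with the geometric mid-parent, and 0 with each replicate left out. Over all genes the block raised the calls for Col/C24 from 6 to 519 and those for C24/Col from 9 to 282, and the geometric mid-parent raised them to 88 and 122. Calls between the parents at neighbouring loci were 8, from 8 to 9 with each replicate left out, 11 with no filter on low values, 7 with ribosomal RNA as a covariate and 6 without the libraries above 2% of it. A pseudocount of 0.1 moved AT1G20390 from -2.07 to -3.74 in Col/C24 and AT5G34795 from 0.74 to 1.41, without a change of direction. Leaving out the libraries above 2% ribosomal RNA leaves Col and Col/C24 with 1 library, and leaving out those with CRA1 leaves 1 of C24/Col, assumed to vary like the other groups. Depth limits AT5G34795 and its neighbours, with at most 56.8 estimated reads of AT5G34795 per library, and the C24 level of AT1G20390. Values per gene do not tell the alleles apart.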
